A study of Mus musculus with 24 samples.

Results

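The genes described here code for the fibroblast extracellular matrix and for proteins that mark fibroblasts: fibrillar and other collagens, small proteoglycans, adhesive glycoproteins, crosslinking enzymes, microfibril proteins, a matrix protease and its inhibitor, and receptors, cytoskeletal proteins and a transcription factor of mesenchymal cells. They were listed by name and function, with earlier results of these data known, and no measured value entered the rule; each was read from the probe set that carried its symbol alone. Of 34 genes, 33 were measured, each by 1 probe set, among 19938 genes on the array. Fbn1 was not analysed here.

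Fibroblasts and their embryonic counterpart, mesenchyme, secrete collagens that assemble into fibres, which lysyl oxidases crosslink and small proteoglycans space apart. Metalloproteinases cut this matrix and tissue inhibitors of metalloproteinases restrain them, while PDGF receptors carry growth signals to the cells that make it. Embryonic stem cells make little fibrillar collagen. They are often grown on fibroblasts as a feeder layer, and fibroblast transcripts in their RNA can therefore come from the feeder as well as from stem cells that differentiate.

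The study set mouse embryonic stem cells without Eed (KO) against wild-type (WT) stem cells. Eed belongs to the Polycomb complex that places methyl groups on lysine 27 of histone H3. RNA was hybridised to Affymetrix Mouse Gene 1.0 ST arrays on day 0 (stem cells), day 3 and day 7 (embryoid bodies, the aggregates in which stem cells differentiate). The KO arrays came from the Eed KO lines E14 and J1, and the WT arrays from the lines J1 and V6.5, with 2 arrays for each line and day, so 4 KO and 4 WT arrays per day and 24 in all. J1 is the single background present in both genotypes, E14 is found among KO arrays alone and V6.5 among WT arrays alone, and each genotype is represented by 2 lines. The lines appear as clones in the plots. All lines were expanded with LIF on mitomycin C-inactivated mouse embryonic fibroblasts, and embryoid bodies were started in hanging drops, without LIF, from stem cells depleted of these feeders. The labels do not say whether day 0 RNA was taken after feeder depletion, nor whether the 2 arrays of a line and day came from separate cultures. For single lines, p-values measure the spread between these arrays, which may be technical. For the genotypes, the spread also holds differences between the 2 lines of a genotype. In RNA of whole cultures, fewer cells of a type and less RNA per cell cannot be told apart.

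Values are log2 expression, from 2.08 to 14.42 over the table, with array medians of 6.96 to 7.14. Eed was low in every KO array, at 7.06 to 7.48 on day 0, 5.76 to 6.97 on day 3 and 6.09 to 6.64 on day 7. In WT arrays it lay at 10.28 to 11.02, 9.60 to 10.36 and 9.37 to 9.79 on the same days. Pou5f1, a pluripotency factor, lay at 11.49 to 11.97 in KO and 7.95 to 8.98 in WT arrays on day 7. Repeat arrays were close, with r of 0.990 to 0.995 across genes in 11 of 12 pairs. The J1 WT pair of day 7 stood apart, with r of 0.962 and 1256 of all genes at least 2-fold apart. In that pair 6 of the 33 matrix and fibroblast genes were higher in array 1 than in array 2, and 9 were at least 2-fold apart. The E14 KO pair of day 0 was close over all genes, with r of 0.995 and 41 genes at least 2-fold apart. Of the 33 members, 6 were at least 2-fold apart in this pair.

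Fibroblast and matrix transcripts were measured on day 0 as well as in embryoid bodies. The mean log2 value over the 33 members was 8.53 to 9.38 in KO arrays and 8.10 to 8.34 in WT arrays on day 0, 7.86 to 8.09 in KO and 7.47 to 7.69 in WT arrays on day 3, and 8.51 to 8.94 in KO and 8.34 to 9.21 in WT arrays on day 7. The mean was lowest on day 3 in both genotypes. A gene is called changed below when its adjusted p from limma, over all 19938 genes, is under 0.05 and its difference is at least 2-fold, a difference of 1 on the log2 scale. By these calls the members fell into 4 patterns. The first, of 8 genes, fell between day 0 and day 3 in KO or WT and were not called higher on day 7. The second, of 5 genes, fell by day 3 and rose by day 7. The third, of 13 genes, rose between day 3 and day 7 only, and the last 7 were called in neither interval.

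**Figure D1:**
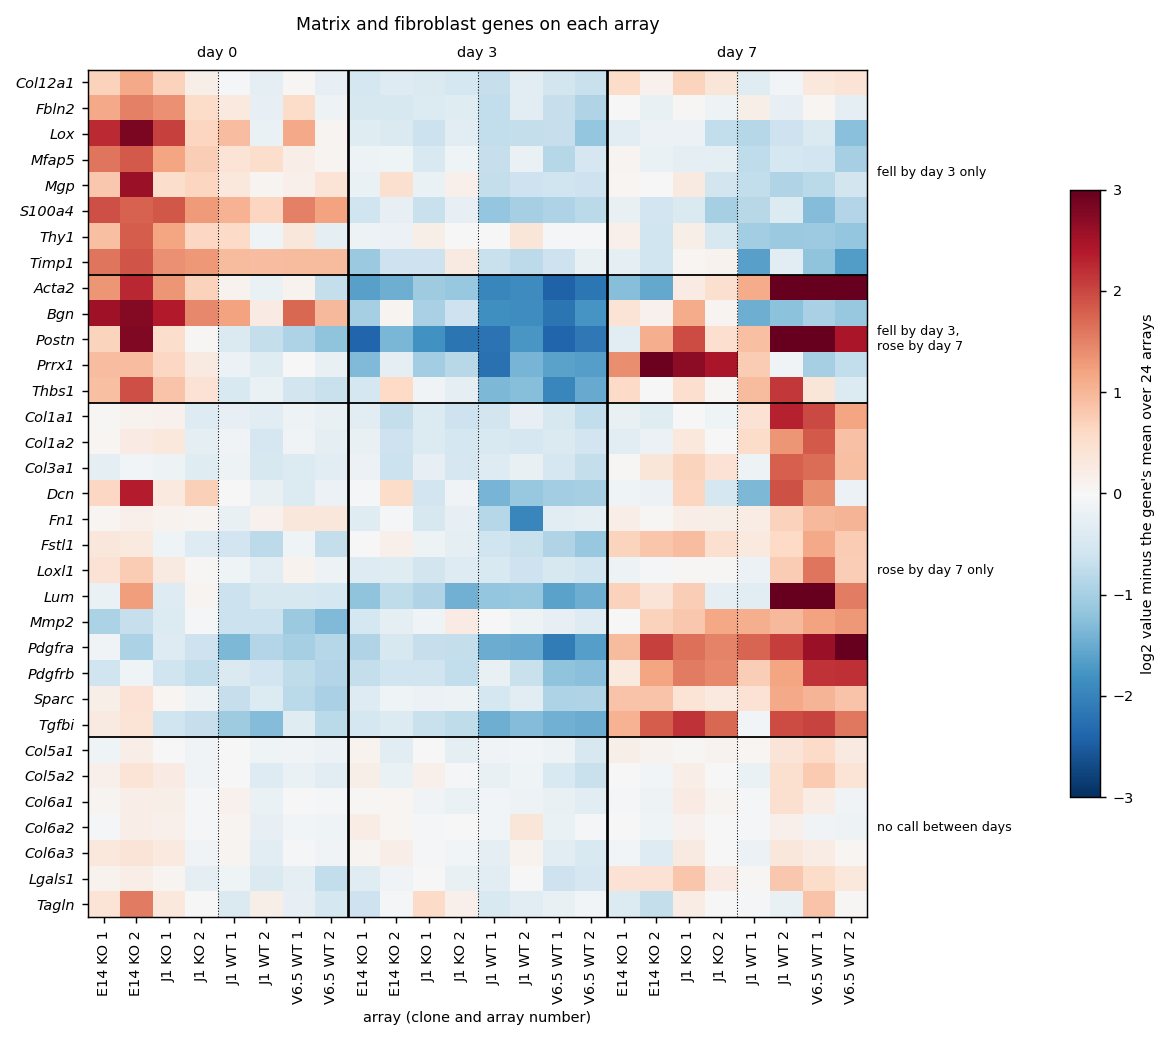
Log2 value of each of 33 genes (rows, grouped by pattern over the days) on each of 24 arrays (columns), minus the gene's mean over all arrays; the colour scale ends at 3 on either side. The first 8 rows are high on day 0, most of all in the E14 KO arrays, while the 13 rows of the third block are high on day 7, most of all in J1 WT array 2 and the V6.5 WT arrays. The rows were grouped by calls between days on these same arrays, so the days of their peaks follow largely from the grouping.

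On day 0, 4 of 33 members were higher in KO than in WT and none lower, where 0.552% of all genes were called in either direction, 0.461% higher and 0.0903% lower. They were Thbs1 (thrombospondin 1, an adhesive glycoprotein), Lox (lysyl oxidase, which crosslinks collagen and elastin), Mfap5 (a microfibril protein) and Fbln2 (fibulin 2, which binds elastic fibres and basement membranes). The difference was positive for 32 of 33 members with a median of 0.61 log2, against -0.03 over all genes. Thbs1 had 10.19 and 11.22 in E14 KO and 10.14 and 9.71 in J1 KO, against 8.82 and 9.09 in J1 WT and 8.73 and 8.60 in V6.5 WT. Every KO array was above every WT array, by 1.5 ± 0.39 log2 on average (SE; adjusted p = 0.042). Lox had 9.11 and 9.68 in E14 KO and 8.92 and 7.50 in J1 KO, against 7.78 and 6.67 in J1 WT and 7.99 and 6.94 in V6.5 WT. The groups overlapped through J1 KO array 2, and the difference was 1.46 ± 0.36 (adjusted p = 0.031). Mfap5 had 8.48 and 8.72 in E14 KO and 8.06 and 7.62 in J1 KO, against 7.29 and 7.41 in J1 WT and 7.07 and 6.96 in V6.5 WT, with no overlap and a difference of 1.04 ± 0.19 (adjusted p = 0.0038). Fbln2 had 9.12 and 9.51 in E14 KO and 9.36 and 8.54 in J1 KO, against 8.28 and 7.74 in J1 WT and 8.54 and 7.85 in V6.5 WT. Its lowest KO value and highest WT value were both 8.54, and the difference was 1.03 ± 0.21 (adjusted p = 0.0087).

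These day 0 calls were not stable. None of the 4 was called without E14 KO array 2 or without V6.5 WT array 2 of day 0, where 13 and 14 members had an unadjusted p under 0.05 by limma. The call of Thbs1 ended on leaving out any of 10 arrays (adjusted p 0.052 to 0.15): 7 of the 8 of day 0 (not J1 KO array 2), both J1 KO arrays of day 3 and J1 WT array 1 of day 3. Without array 1 of E14 KO 2 members were called, and 1 without array 1 of J1 KO or array 2 of J1 WT. Without E14 KO array 2, Thbs1 differed by 1.22 (adjusted p = 0.15), Lox by 1.19 (0.11), Fbln2 by 0.90 (0.037, under 2-fold) and Mfap5 by 0.90 (0.014, under 2-fold). Within the J1 background, J1 KO against J1 WT, no member was called on day 0, where 0.456% of all genes were. By limma, 11 members had an unadjusted p under 0.05, 31 of 33 differences were positive and their median was 0.41 log2. Between the KO lines, E14 against J1, no member was called either (0.396% of all genes; 8 members at an unadjusted p under 0.05), with 31 of 33 differences positive and a median of 0.41. Between the WT lines, V6.5 against J1, none was called (0.953% of all genes, 0.261% higher and 0.692% lower; 2 members at an unadjusted p under 0.05) and the median was 0.01.

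The collagens that make up most of the fibroblast fibres were not among the day 0 calls. Col1a1 and Col1a2, the chains of type I collagen, differed by 0.21 ± 0.29 and 0.34 ± 0.23 (SE), Col3a1 of type III collagen by 0.12 ± 0.30, and fibronectin (Fn1) by -0.05 ± 0.24. Some members of larger difference had no call. Acta2 (smooth muscle actin) had 10.37 and 11.33 in E14 KO and 10.37 and 9.75 in J1 KO, against 9.17 and 8.86 in J1 WT and 9.16 and 8.34 in V6.5 WT. Every KO array was above every WT array, with means of 10.45 in KO and 8.88 in WT. Postn (periostin, an adhesive matrix protein) had 8.42 and 10.52 in E14 KO and 8.27 and 7.79 in J1 KO, against 7.32 and 7.04 in J1 WT and 6.83 and 6.53 in V6.5 WT, a difference of 1.82 ± 0.72 (adjusted p = 0.25). Dcn (decorin, a small proteoglycan on collagen fibres) had 8.60 and 10.34 in E14 KO and 8.29 and 8.70 in J1 KO, against 7.97 and 7.77 in J1 WT and 7.57 and 7.80 in V6.5 WT, a difference of 1.21 ± 0.56 (adjusted p = 0.36). In each of these genes, Acta2, Postn and Dcn, E14 KO array 2 was the highest of the 8 arrays and stood clear of the next.

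Of 25 other fibroblast and mesenchyme markers, 1 was called on day 0, where 0.552% of all genes were called. The mean of that list was 6.76 to 7.44 in KO arrays and 6.62 to 6.82 in WT arrays, with E14 KO array 2 highest, and the ranges overlapped through J1 KO array 2. The called gene, Fgf7, a growth factor made by mesenchyme, was higher in KO (1.05 ± 0.23 log2, SE; adjusted p = 0.017), with 8.08 and 7.79 in E14 KO and 7.87 and 6.92 in J1 KO, against 6.68 and 6.08 in J1 WT and 7.24 and 6.43 in V6.5 WT. That call ended without E14 KO array 1, J1 KO array 1, J1 WT array 2 or V6.5 WT array 2 of day 0 (adjusted p 0.053 to 0.062). Of 14 matrix receptors, Cd44, which binds hyaluronan, was higher by 1.14, a call that ended without either E14 KO array or array 2 of J1 WT or V6.5 WT. The mean of 8 pluripotency and epithelial genes was 11.67 to 11.80 in KO arrays and 11.44 to 11.63 in WT arrays on that day. Of 12 endoderm genes, Cubn (2.12) and Dab2 (1.56), an endocytic receptor and an adaptor of extraembryonic endoderm, were higher in KO, and the list's mean was 7.34 to 7.65 in KO arrays and 6.97 to 7.06 in WT arrays, without overlap. Each lost its call without any 1 of 4 day 0 arrays. The part of feeder fibroblasts and of endoderm in these day 0 values was not tested.

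**Figure D2:**
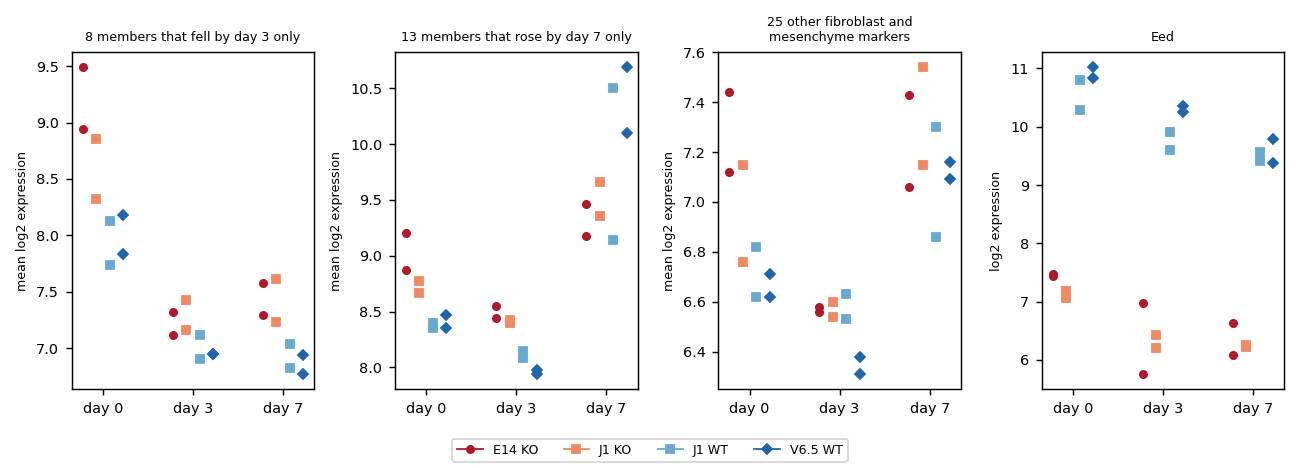
Mean log2 expression on each array (points; 2 arrays per line and day) over the 8 members that fell by day 3 only, over the 13 that rose by day 7 only and over 25 other fibroblast and mesenchyme markers, and log2 expression of Eed. KO lines are left of WT lines on each day. The first list is highest on day 0, at 8.32 to 9.49 in KO and 7.74 to 8.18 in WT arrays, and the second highest on day 7. Both lists were formed from calls between days on these same arrays, so the days of their peaks follow largely from that choice.

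Between day 0 and day 3, 13 of 33 members fell in KO and 7 fell in WT, and none rose. Over all genes 1.17% were called in KO and 2.04% in WT, with 0.607% and 1.08% lower. The 7 that fell in WT were all among the 13 that fell in KO, 53.8% of them: Bgn, S100a4, Acta2, Prrx1, Timp1, Lox and Thbs1. The other 6, called in KO, were Postn, Fbln2, Mfap5, Thy1, Col12a1 and Mgp. How far the KO and WT calls overlap over all genes was not computed. No member's fall was called different between KO and WT by the test of the difference (0 of 33 called and 6 at an unadjusted p under 0.05 by limma, with 0.0502% of all genes called, 0.0301% higher and 0.0201% lower). The longer list in KO therefore does not by itself show a different response, and the test does not show an equal one.

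Bgn (biglycan, a small proteoglycan that binds collagen and growth factors) showed one of the deepest falls in both genotypes. On day 3 it had 7.47 and 8.57 in E14 KO, 7.50 and 7.85 in J1 KO, 6.63 and 6.62 in J1 WT and 6.29 and 6.70 in V6.5 WT. On day 0 it had 11.02 and 11.22 in E14 KO, 10.86 and 9.91 in J1 KO, 9.68 and 8.73 in J1 WT and 10.21 and 9.44 in V6.5 WT. Each day 3 array was below every day 0 array of its genotype, and the fall was -2.90 ± 0.29 in KO and -2.95 ± 0.29 in WT (SE; adjusted p = 1.8e-06 and 3.1e-07). S100a4, a small calcium-binding protein also called fibroblast-specific protein, had 6.66 and 7.00 in E14 KO, 6.58 and 7.01 in J1 KO, 6.09 and 6.26 in J1 WT and 6.33 and 6.43 in V6.5 WT on day 3. On day 0 it had 9.17 and 9.01 in E14 KO, 9.12 and 8.53 in J1 KO, 8.30 and 7.89 in J1 WT and 8.75 and 8.45 in V6.5 WT. It fell by 2.15 log2 in KO and by 2.07 in WT, again with no overlap between the days.

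Timp1, an inhibitor of metalloproteinases, had 8.16 and 8.66 in E14 KO, 8.67 and 9.54 in J1 KO, 8.62 and 8.50 in J1 WT and 8.66 and 9.05 in V6.5 WT on day 3. On day 0 its 8 values lay between 10.21 and 11.16, above all of these. It fell by 2.06 log2 in KO and by 1.52 in WT. Acta2 (smooth muscle actin, a mark of contractile fibroblasts) fell by 2.72 in KO and by 1.93 in WT, and Lox by 2.38 in KO and by 1.31 in WT. Bgn, Acta2, Timp1 and S100a4 were the 4 members called lower in each of the 4 lines taken alone. In single lines, 13 members fell in E14 KO, 7 in J1 KO, 6 in J1 WT and 6 in V6.5 WT. Over all genes 0.692%, 0.567%, 1.19% and 1.00% were lower in the same order. Called in either direction were 1.41%, 0.908%, 1.94% and 2.25% of all genes. Leaving out 1 array moved 3 of these counts by over 1.5 times: J1 KO to 3 without its day 0 array 1 and to 2 and 4 without its day 3 arrays 1 and 2, and V6.5 WT to 3 without its day 0 array 1 and to 2 without its day 3 array 1. E14 KO gave 8 without its day 0 array 2 or its day 3 array 1. The 13 calls in KO became 9 without E14 KO array 2 of day 0, where Col12a1, Thy1 and Mgp differed by -0.99, -0.93 and -0.61 (under 2-fold) and Thbs1 differed by -0.84 (adjusted p = 0.19). Thbs1 lost its call in KO without any of 7 arrays: E14 KO array 1 and J1 KO array 1 of both days, J1 KO array 2 and J1 WT array 2 of day 3 and E14 KO array 2 of day 0. It lost its call in WT without any 1 of the 8 WT arrays of those days, and Mgp also without array 1 of E14 KO or of J1 KO on day 3.

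Other fibroblast markers that are no members fell over the same interval. Of the 25, 6 fell in KO (Fgf7, Ogn, Aspn, Ccl2, Ccl7 and Vcam1) and 3 in WT (Aspn, Ccl2 and Ccl7), while Has2 and Cxcl12 rose in WT. Over all genes 0.607% were lower in KO and 1.08% in WT, and 0.958% were higher in WT. Aspn and Has2 each lost the call in WT without any 1 of 5 arrays. Ccl7, a chemokine that cultured fibroblasts secrete, had 7.12 and 7.52 in E14 KO, 7.25 and 7.15 in J1 KO, 6.86 and 7.10 in J1 WT and 6.98 and 6.75 in V6.5 WT on day 3. On day 0 it had 9.28 and 9.58 in E14 KO, 9.19 and 8.39 in J1 KO, 8.43 and 8.11 in J1 WT and 8.53 and 8.0 in V6.5 WT, above every day 3 array. Of 16 collagen-processing genes, Pcolce, which enhances procollagen cleavage, fell by 1.69 in KO and by 2.17 in WT. Of 15 basement membrane genes none fell in KO and Nid1 fell in WT, with list medians of -0.01 and -0.11. The part of feeder cells in these falls was not tested.

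Of the 8 genes that fell by day 3 only (Col12a1, Thy1, Lox, Fbln2, Timp1, S100a4, Mfap5 and Mgp), 7 had a day 7 mean below their day 0 mean in all 4 lines. In KO their day 7 level averaged over genes was 7.23 to 7.61 per array, and in WT 6.77 to 7.04. These genes were grouped for a fall without a later called rise, which favours low day 7 values. Thy1, a surface antigen of fibroblasts, fell by 1.17 in KO between day 0 and day 3, whereas in WT it fell by 1.16 between day 3 and day 7.

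Between day 3 and day 7, 6 members rose in KO and none fell, while 17 rose and 1 fell in WT. Over all genes 2.00% were called in KO and 6.23% in WT, with 1.65% and 3.78% higher and 2.45% lower in WT. Of the 6 that rose in KO (Prrx1, Postn, Tgfbi, Pdgfra, Pdgfrb and Bgn), 5 also rose in WT, 83.3% of the KO list and 29.4% of the WT list, and Bgn was the exception. The 12 that rose in WT without a call in KO were Acta2, Lum, Thbs1, Col1a1, Col1a2, Dcn, Fn1, Fstl1, Col3a1, Sparc, Mmp2 and Loxl1, and Thy1 fell. The overlap over all genes was not computed here either, and over all genes more were called higher in WT than in KO. A missing call in KO does not by itself show a different change. The median over 33 members was 0.39 in KO and 1.27 in WT, against -0.06 and -0.04 over all genes. Bgn lost its call in KO without array 1 of E14 KO or J1 KO on day 3 or of J1 KO on day 7, Dcn in WT without V6.5 WT array 1 or J1 WT array 2 of day 7, and Loxl1 without V6.5 WT array 1 of day 7. Counts in single lines were 5 in E14 KO, 5 in J1 KO, 15 in J1 WT (14 higher and 1 lower) and 18 in V6.5 WT (16 higher and 2 lower, Thy1 and Timp1), the KO counts all higher, where 2.75%, 1.29%, 4.77% and 7.76% of all genes were called. In the same order 2.18%, 1.08%, 2.72% and 4.67% of all genes were higher, and 0.567%, 0.211%, 2.05% and 3.09% were lower. The E14 KO count was 3 without its day 3 array 1 or its day 7 array 2, and the J1 KO count 8 without either J1 WT array of day 7.

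**Figure D3:**
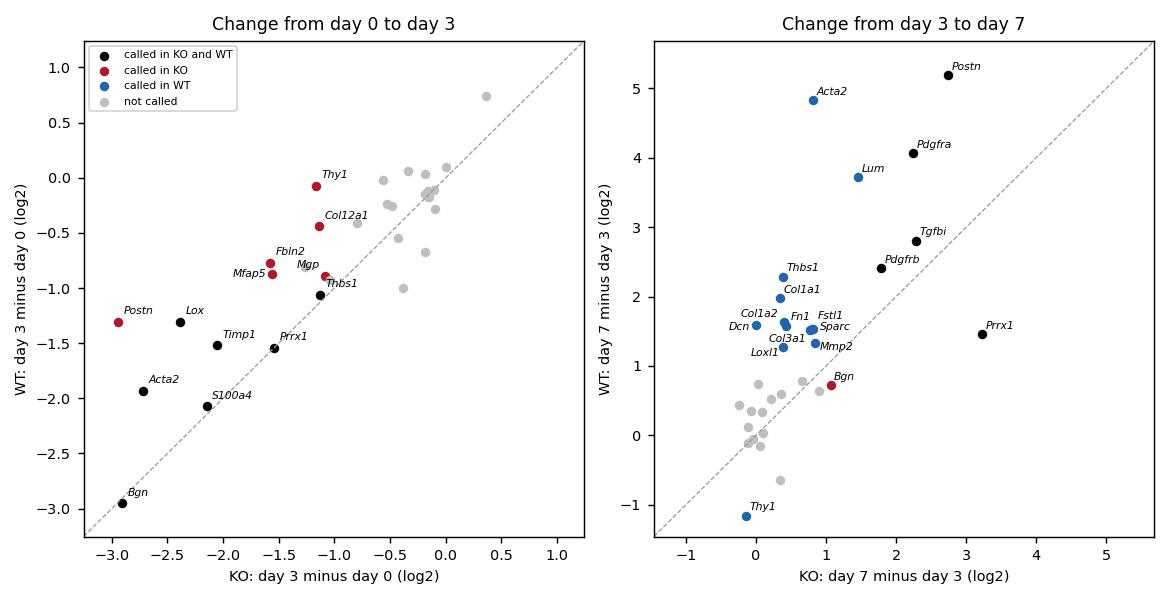
Log2 change of each of 33 members between day 0 and day 3 (left) and between day 3 and day 7 (right), in KO (horizontal axis) and in WT (vertical axis), coloured by where the change was called; the dashed line marks equal change. On the left 7 of the 33 changes were larger (less negative) in KO than in WT; on the right Acta2, with 0.81 in KO and 4.83 in WT, lies farthest above the line and Prrx1, with 3.23 in KO and 1.45 in WT, farthest below.

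Pdgfra and Pdgfrb, the receptors for platelet-derived growth factors that mark early mesenchyme, rose in each of the 4 lines taken alone, as did Tgfbi (an adhesive matrix protein induced by TGF-beta). Pdgfra had 9.23 and 10.33 in E14 KO, 9.93 and 9.75 in J1 KO, 10.02 and 10.35 in J1 WT and 10.87 and 11.36 in V6.5 WT on day 7. On day 3 it had 7.37 and 7.78 in E14 KO, 7.57 and 7.56 in J1 KO, 6.79 and 6.77 in J1 WT and 6.17 and 6.61 in V6.5 WT. It rose by 2.24 ± 0.24 in KO and by 4.07 ± 0.24 in WT (SE), starting lower in WT. Tgfbi had 9.82 and 10.59 in E14 KO, 10.93 and 10.50 in J1 KO, 8.69 and 10.73 in J1 WT and 10.80 and 10.36 in V6.5 WT on day 7, against 8.0 to 8.37 in KO and 7.28 to 7.46 in WT on day 3. Its rise was 2.28 ± 0.32 in KO and 2.80 ± 0.32 in WT.

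Of 5 fibrillar collagen chains, 3 rose in WT (Col1a1, Col1a2 and Col3a1), and none was called in KO. Col1a1 had 8.31 and 8.18 in E14 KO, 8.55 and 8.40 in J1 KO, 8.97 and 10.85 in J1 WT and 10.51 and 9.71 in V6.5 WT on day 7. On day 3 it had 8.22 and 7.81 in E14 KO, 8.12 and 7.92 in J1 KO, 7.99 and 8.30 in J1 WT and 8.05 and 7.80 in V6.5 WT. All 4 WT arrays of day 7 were above all KO arrays and above all WT arrays of day 3, by 1.97 ± 0.24 over day 3 (SE; adjusted p = 1.3e-06), while the difference in KO was 0.35 ± 0.24 (adjusted p = 0.39). Col1a2 differed by 0.39 in KO (adjusted p = 0.20) and rose by 1.63 in WT, and Col3a1 differed by 0.76 in KO (adjusted p = 0.060) and rose by 1.52 in WT. Fn1, fibronectin, on which fibroblasts assemble collagen, had 12.13 and 11.96 in E14 KO, 12.13 and 12.10 in J1 KO, 12.16 and 12.63 in J1 WT and 12.90 and 12.96 in V6.5 WT on day 7. On day 3 it had 11.56 and 11.90 in E14 KO, 11.45 and 11.69 in J1 KO, 11.08 and 9.98 in J1 WT and 11.60 and 11.67 in V6.5 WT. It rose by 1.58 in WT, and J1 WT array 2 of day 3 was the lowest of the 24 arrays.

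The change between day 3 and day 7 differed between KO and WT for 8 of 33 members, where 2.56% of all genes did, 1.36% with a larger and 1.20% with a smaller value in KO. It was smaller in KO for Acta2 (-4.02 ± 0.61 log2, KO change minus WT change), Thbs1 (-1.91 ± 0.47), Pdgfra (-1.82 ± 0.33), Col1a1 (-1.63 ± 0.35), Col1a2 (-1.24 ± 0.27) and Fn1 (-1.15 ± 0.29, SE). It was larger for Prrx1 (1.78 ± 0.44), a homeobox transcription factor of limb and craniofacial mesenchyme, and for Thy1 (1.02 ± 0.30). The count was 13 without J1 WT array 1 of day 7, when Col3a1, Dcn, Lum, Postn and Loxl1 were called too, with differences of -1.18, -2.22, -3.22, -3.23 and -1.16. Leaving out 1 array ended the call of Thy1 for 16 of 24 arrays (adjusted p 0.051 to 0.11). It ended that of Fn1 without J1 WT array 2 of day 3 (under 2-fold) and that of Prrx1 without V6.5 WT array 1 of day 7 (adjusted p = 0.053). Leaving out a whole line left 3 calls without E14 KO or J1 KO, 2 without V6.5 WT and 13 without J1 WT.

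On day 7, 3 members were higher and 4 lower in KO than in WT, where 4.36% of all genes were called, 3.08% higher and 1.28% lower. The higher ones were Prrx1, Bgn and Timp1, and the lower ones Acta2, Postn, Col1a1 and Col1a2. The median difference over the 33 members was -0.23 log2 and 13 differences were positive. Acta2 had 7.79 and 7.53 in E14 KO and 9.30 and 9.54 in J1 KO, against 10.17 and 12.08 in J1 WT and 12.63 and 12.25 in V6.5 WT. All KO arrays were below all WT arrays, by -3.24 ± 0.51 log2 or 9.45-fold (SE; adjusted p = 7.9e-05), and J1 KO lay between E14 KO and the WT lines. Postn had 7.43 and 8.84 in E14 KO and 9.71 and 8.25 in J1 KO, against 8.64 and 12.53 in J1 WT and 11.88 and 10.20 in V6.5 WT. The groups overlapped through J1 WT array 1, and the difference was -2.25 ± 0.72 (adjusted p = 0.034). Leaving out 1 of 5 arrays ended this call, with adjusted p from 0.052 to 0.12: either E14 KO array, J1 KO array 2, J1 WT array 2 or V6.5 WT array 1 of day 7.

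Both chains of type I collagen were lower in KO on day 7. Col1a1, with the values above, differed by -1.65 ± 0.29 (SE; adjusted p = 0.00027). Col1a2 had 7.73 and 7.90 in E14 KO and 8.38 and 8.05 in J1 KO, against 8.61 and 9.39 in J1 WT and 9.91 and 8.94 in V6.5 WT, with no overlap and a difference of -1.20 ± 0.23 (adjusted p = 0.00058). Without V6.5 WT array 1 it was -0.96 (adjusted p = 0.0016), under 2-fold. Col3a1 had 7.96 and 8.27 in E14 KO and 8.57 and 8.34 in J1 KO, against 7.76 and 9.70 in J1 WT and 9.59 and 8.82 in V6.5 WT. J1 WT array 1 was below all KO arrays, and the difference of -0.68 ± 0.30 was not called (adjusted p = 0.14). Fn1 differed by -0.59 ± 0.24 (adjusted p = 0.11). Lum (lumican, a small proteoglycan of collagen fibres) had 6.64 and 6.34 in E14 KO and 6.68 and 5.66 in J1 KO, against 5.60 and 10.34 in J1 WT and 9.87 and 7.49 in V6.5 WT. J1 WT array 1 was the lowest of the 8 arrays and array 2 the highest, and the difference of -1.99 ± 0.71 was not called (adjusted p = 0.060). Without J1 WT array 1, Lum (-2.95), Col3a1 (-1.11), Loxl1 (-1.04, a lysyl oxidase relative) and Pdgfra (-1.04) were called lower in KO as well.

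Against these, 3 members were higher in KO on day 7. Prrx1 had 9.41 and 10.95 in E14 KO and 10.70 and 10.45 in J1 KO, against 8.77 and 7.91 in J1 WT and 7.02 and 7.27 in V6.5 WT. Every KO array was above every WT array, by 2.64 ± 0.37 log2 or 6.22-fold (SE; adjusted p = 1.9e-05). Bgn had 8.88 and 8.61 in E14 KO and 9.59 and 8.55 in J1 KO, against 7.02 and 7.25 in J1 WT and 7.51 and 7.35 in V6.5 WT, again with no overlap and a difference of 1.63 ± 0.34 (adjusted p = 0.0014). Timp1 had 8.98 and 8.68 in E14 KO and 9.35 and 9.38 in J1 KO, against 7.64 and 8.93 in J1 WT and 8.08 and 7.61 in V6.5 WT. The groups overlapped through J1 WT array 2, the difference was 1.03 ± 0.29 (adjusted p = 0.016), and it fell under 2-fold or lost its adjusted p without either J1 KO array, J1 WT array 1 or V6.5 WT array 2 of day 7. Prrx1, Bgn, Acta2 and Col1a1 kept their day 7 call whichever single array or line was left out.

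**Figure D4:**
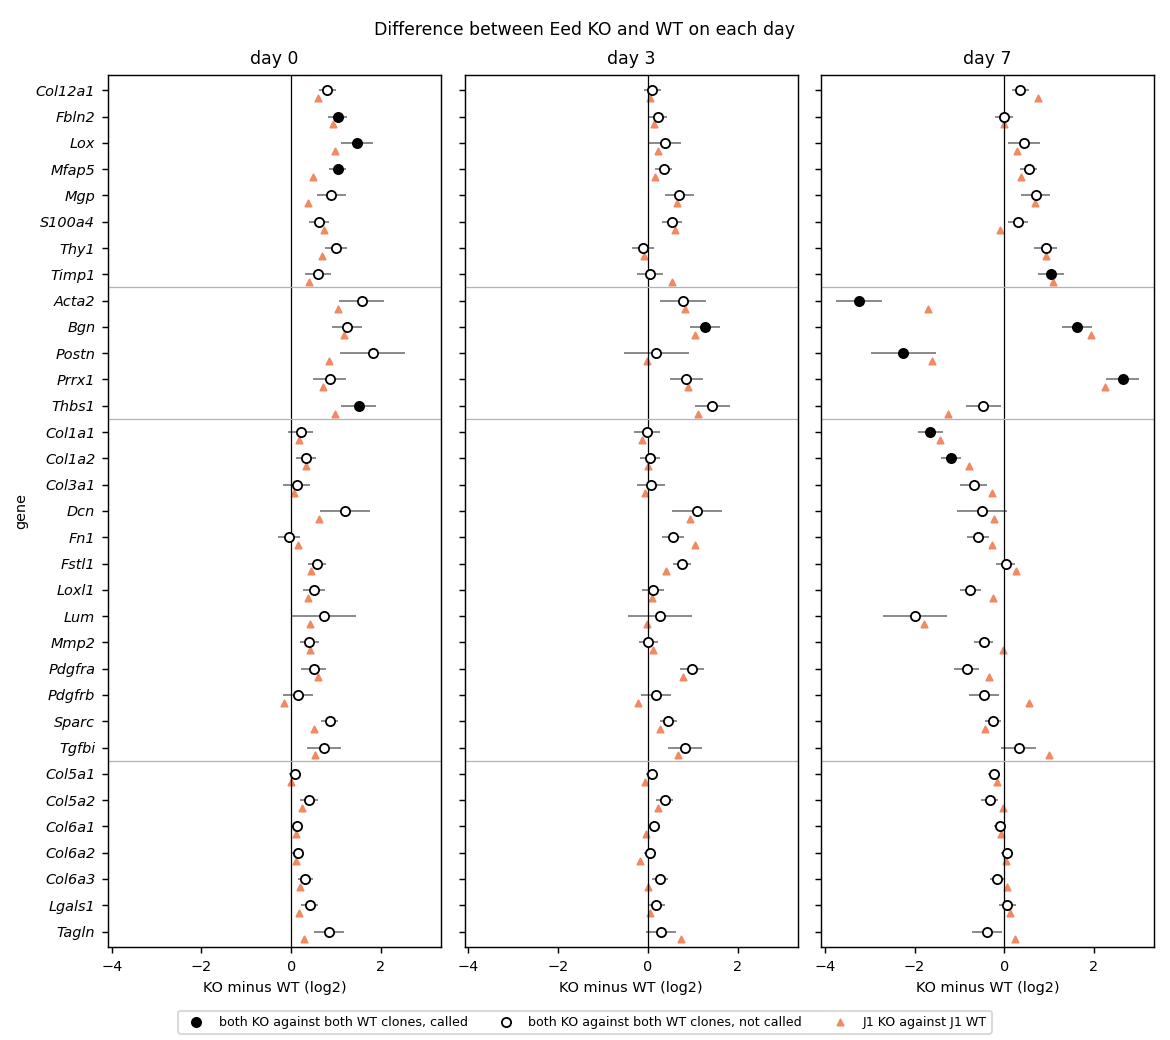
KO minus WT difference in log2 expression of each of 33 members on day 0, 3 and 7 (circles, filled where called; bars are standard errors) and the difference between J1 KO and J1 WT alone (triangles). On day 0, 32 of the circles lie to the right of 0; on day 7 they spread to both sides, between -3.24 for Acta2 and 2.64 for Prrx1.

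Promoter sequences are shown for 4 members with a day 7 call, a pair lower and a pair higher in KO. Capitals mark letters that match a CArG box (bound by serum response factor), CCAAT, or GGGCGG, on either strand. A CArG match needed CC and GG at its ends and at most 1 letter other than A or T between them. TATAAA was searched and had no match in these 4. Each is a window of 300 bases around the gene start, from RefSeq in GRCm38.p6: Acta2 at chr19:34255324-34255623 (minus strand), Col1a2 at chr6:4505368-4505667 (plus), both lower in KO, and Bgn at chrX:73483351-73483650 (plus) and Prrx1 at chr1:163313601-163313900 (minus), both higher in KO.
Acta2: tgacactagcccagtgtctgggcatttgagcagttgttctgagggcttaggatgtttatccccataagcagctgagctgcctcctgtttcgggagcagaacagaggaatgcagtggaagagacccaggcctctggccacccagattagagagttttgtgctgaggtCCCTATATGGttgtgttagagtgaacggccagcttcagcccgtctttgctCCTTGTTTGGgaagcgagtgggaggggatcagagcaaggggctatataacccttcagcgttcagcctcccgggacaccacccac
Col1a2: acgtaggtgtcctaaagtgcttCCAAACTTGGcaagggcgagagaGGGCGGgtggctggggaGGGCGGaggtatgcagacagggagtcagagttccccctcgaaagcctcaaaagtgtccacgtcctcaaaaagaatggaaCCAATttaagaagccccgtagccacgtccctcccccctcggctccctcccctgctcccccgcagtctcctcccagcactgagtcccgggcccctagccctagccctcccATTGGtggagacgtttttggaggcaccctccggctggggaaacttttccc
Bgn: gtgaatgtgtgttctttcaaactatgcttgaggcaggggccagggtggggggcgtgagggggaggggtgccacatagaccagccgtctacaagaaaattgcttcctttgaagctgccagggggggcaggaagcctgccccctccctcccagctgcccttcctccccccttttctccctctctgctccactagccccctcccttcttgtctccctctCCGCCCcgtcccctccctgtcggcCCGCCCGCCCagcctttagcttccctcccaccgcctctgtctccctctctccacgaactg
Prrx1: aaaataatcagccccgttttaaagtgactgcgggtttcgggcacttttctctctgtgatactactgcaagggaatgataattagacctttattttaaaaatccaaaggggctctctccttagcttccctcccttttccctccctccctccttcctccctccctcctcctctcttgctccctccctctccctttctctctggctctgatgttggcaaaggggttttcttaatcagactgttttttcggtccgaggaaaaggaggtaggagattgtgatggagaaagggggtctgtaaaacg
The Acta2 window held 2 CArG matches, CCCTATATGG and CCTTGTTTGG, and the Col1a2 window held 1, with 2 CCAAT and 2 GGGCGG matches. The Bgn window held 3 GGGCGG matches and the Prrx1 window held none of the motifs. Over the 17 members with a window used here (19 windows), 4 windows held a CArG match, 3 CCAAT, 9 GGGCGG and 3 TATAAA. Windows of 1 chromosome were left out for the members but not for the shares over all windows. Over all 32817 windows of 300 bases the shares were 10.0%, 37.4%, 35.6% and 13.6%. These matches describe letters in the windows.

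Within the J1 background, 6 members were called on day 7, where 4.29% of all genes were, 2.91% higher and 1.38% lower: Prrx1 (2.24 ± 0.40), Bgn (1.94 ± 0.39) and Timp1 (1.08 ± 0.31) were higher in J1 KO than in J1 WT, and Acta2 (-1.70 ± 0.42), Col1a1 (-1.43 ± 0.38) and Thbs1 (-1.26 ± 0.40, SE) were lower. Of these, 5 were called between both KO and both WT lines as well, and Thbs1 was called here only. The count was 10 without J1 WT array 1, with Col1a2, Col3a1, Dcn, Lum and Postn added at -1.17, -1.24, -1.87, -4.17 and -3.55 and Timp1 lost (0.43). Without J1 WT array 2 the 3 lower calls were lost, with Acta2 at -0.75, Col1a1 at -0.49 and Thbs1 at -0.67, and 4 members were called higher, among them Tgfbi at 2.03. The count was 1 without J1 KO array 1 and 2 without J1 KO array 2, and Prrx1 kept its call whichever array was left out.

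Lines of the same genotype also differed on day 7. Acta2 was lower in E14 KO than in J1 KO (-1.76 ± 0.42, SE; adjusted p = 0.027; 0.998% of all genes called, 0.742% higher and 0.256% lower), a call that ended without any of those 4 arrays (adjusted p 0.089 to 0.20). Between the WT lines, V6.5 against J1, Pdgfrb was higher (1.22 ± 0.23) and Thbs1 lower (-1.56 ± 0.40; 0.993% of all genes called, 0.592% higher). Pdgfrb lost its call without J1 WT array 1 or V6.5 WT array 2, and Thbs1 without J1 WT array 2 or V6.5 WT array 2. These 2 calls became 10 without J1 WT array 2 and 1 without V6.5 WT array 2. Pdgfrb had 8.25 and 9.14 in E14 KO, 9.51 and 9.41 in J1 KO, 8.70 and 9.14 in J1 WT and 10.12 and 10.14 in V6.5 WT. The KO arrays lay on both sides of the J1 WT arrays and below those of V6.5 WT.

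**Figure D5:**
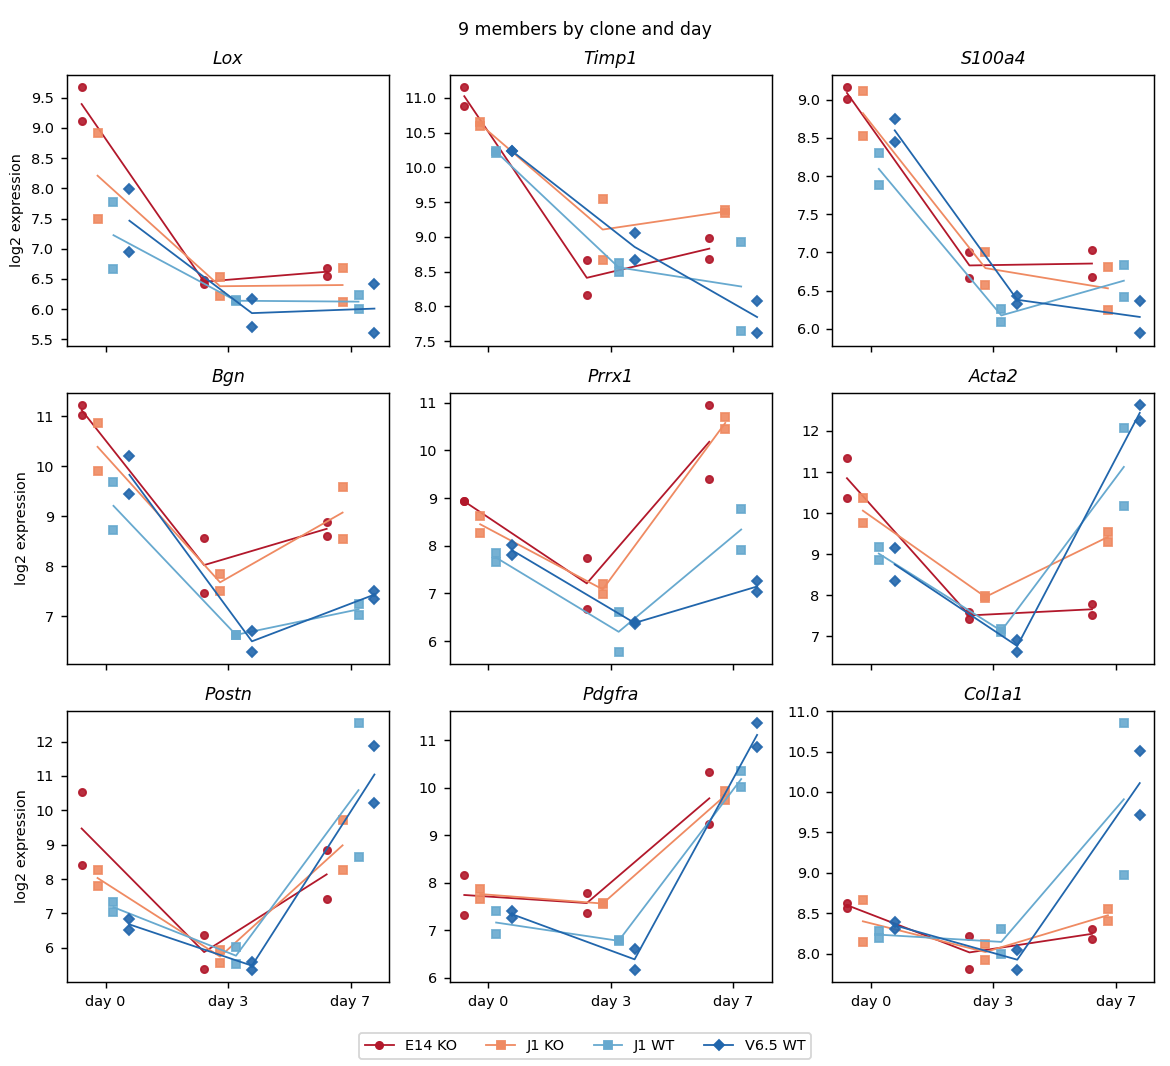
Log2 expression of 9 members on each array (points) by day and line, with lines through the means of the 2 arrays. Lox, Timp1 and S100a4 are highest on day 0. On day 7 Bgn and Prrx1 are higher in KO arrays. On that day Acta2, Postn and Col1a1 are higher on average in WT arrays, with Acta2 at 7.53 to 9.54 in KO and 10.17 to 12.63 in WT arrays.

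On day 3, when the members were lowest, 1 of 33 was higher in KO than in WT and none lower, where 0.757% of all genes were called, 0.667% higher and 0.0903% lower. Bgn, with the day 3 values above, was higher in every KO array than in any WT array, by 1.28 ± 0.34 log2 (SE; adjusted p = 0.042). Thbs1 had 8.74 and 9.87 in E14 KO and 9.17 and 8.98 in J1 KO, against 7.92 and 7.99 in J1 WT and 7.33 and 7.77 in V6.5 WT. These groups did not overlap either, and the difference of 1.44 ± 0.39 narrowly missed the threshold (adjusted p = 0.053). The call for Bgn ended on leaving out any 1 of 9 arrays (adjusted p 0.052 to 0.17): J1 KO array 1 and V6.5 WT array 2 of day 0, and every day 3 array but E14 KO array 1. No member was then called, with 6 to 12 at an unadjusted p under 0.05 by limma. The count was 2 without E14 KO array 1 of day 3, array 2 of E14 KO or J1 KO on day 0, or array 2 of either WT line on day 7. In J1 KO against J1 WT, Fn1 was called (1.04 ± 0.24; 1.00% of all genes, 0.742% higher and 0.261% lower), and not without J1 WT array 2 or either J1 KO array of day 3.

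The 7 members called in no interval were Col5a1 and Col5a2 (minor fibrillar chains that set fibre width), Col6a1, Col6a2 and Col6a3 (the chains of the beaded filaments of type VI collagen), Tagln (transgelin, an actin-binding protein of smooth muscle) and Lgals1 (galectin 1). Their KO minus WT differences lay between 0.08 and 0.84 on day 0, 0.05 and 0.38 on day 3, and -0.39 and 0.06 on day 7, and none was called. Lgals1 stayed between 11.41 and 12.97 on all 24 arrays. Taken by line, Tagln fell in E14 KO between day 0 and day 3 (-1.32, adjusted p = 0.024), with no call without array 2 of day 0 (-0.75) or array 1 of day 3 (-1.03), and Col5a2 rose in V6.5 WT between day 3 and day 7 (1.16, adjusted p = 0.00051), with no call without its day 7 array 1.

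Among genes that process and bind the matrix, calls on day 7 went in both directions. Over all genes 4.36% were called on that day, 3.08% higher and 1.28% lower. Of 16 collagen-processing genes, 2 were higher in KO and none lower: Pcolce by 1.45 and P4ha3, a prolyl hydroxylase subunit, by 1.23. Of 14 genes of TGF-beta signalling and its matrix response, Ccn2 was higher by 1.15 and Tgfb1 lower, with -1.64. Tgfb1 had 8.15 and 7.88 in E14 KO and 8.52 and 8.31 in J1 KO, against 8.94 and 10.46 in J1 WT and 10.24 and 9.78 in V6.5 WT, with no overlap. Of 14 matrix receptors, Ddr2, a collagen receptor, was higher by 1.33 and Itga6 by 1.06, and Itgb3 was lower (-1.56). Of 15 basement membrane genes Lama1 was higher by 1.10, and 1 call in a list of this size is near the share over all genes. Of the 25 other fibroblast and mesenchyme markers, Meox2 (1.47), Osr2 (1.13) and Vcam1 (1.02) were higher and Snai2 (-1.16) and Has2 (-1.12) lower. The range over arrays of that list's mean was 7.06 to 7.54 in KO and 6.86 to 7.30 in WT, and it overlapped between the genotypes. Leaving out 1 array ended the call of Has2 for 13 arrays, of Vcam1 for 5, of Itgb3 for 4, of Lama1 for 3, of Snai2 and Osr2 for 2 each and of Itga6 for 1.

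Some markers of other cell types were called on day 7 as well, where 4.36% of all genes were called, 3.08% higher and 1.28% lower. Of 13 smooth and cardiac muscle genes, Actc1 (-1.77) and Tnnt2 (-1.49) were lower in KO and none higher, and the list's mean was 7.06 to 7.31 in KO arrays and 7.34 to 8.31 in WT arrays, without overlap. Of 8 endothelial genes, Kdr (-2.23) and Tie1 (-1.16) were lower in KO, and Tie1 lost its call without any 1 of 5 arrays. The list's mean was 7.01 and 7.61 in E14 KO and 8.93 and 8.5 in J1 KO. It was 7.44 and 9.63 in J1 WT and 9.45 and 9.0 in V6.5 WT, so J1 KO lay within the WT range. Tie1 had 6.57 and 6.51 in E14 KO and 8.26 and 7.92 in J1 KO. It had 7.15 and 8.94 in J1 WT and 9.23 and 8.57 in V6.5 WT. Of 12 endoderm genes, Cubn was higher in KO (2.70) and none lower, with overlapping list means of 8.10 to 9.28 in KO and 7.78 to 9.21 in WT. Of 8 pluripotency and epithelial genes, 6 were higher in KO and none lower, and their mean was 11.08 to 11.41 in KO arrays against 7.92 to 8.58 in WT arrays. The part of these cell types in the differences of the matrix and fibroblast genes was not tested.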

How the data were processed

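RNA of 24 samples of mouse stem cells or embryoid bodies was measured on Affymetrix Mouse Gene 1.0 ST arrays. The authors deposited log2 values of 35556 probe sets, made with RMA and Affymetrix Power Tools per the submitters' processing notes; tool versions and the genome build are not stated in the labels. The number of arrays limits the precision. RMA gives arrays a shared distribution, so values are relative to the rest of the array.

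The platform annotation named 23410 probe sets, 21789 with 1 symbol and 1621 with several (not used); 12146 were not listed. Symbols were updated through RefSeq IDs (21698 matched). For each of 19938 genes the probe set of highest mean was kept (999 had several). The deposited values were not normalized again. limma 3.58.1 in R 4.3.3 fitted means per genotype and day, with the 4 lines as a random block (statmod 1.5.0; correlation 0.161, 18 residual degrees of freedom), and, for single lines, means per line and day (12 residual degrees of freedom). A call needs at least a 2-fold difference and p under 0.05 after Benjamini-Hochberg adjustment across the 19938 genes. Tests were checked on simulated data.

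The genes and the lists were chosen with earlier results of these data known. All members may be named; per-array values are given for Col1a1, Col1a2, Col3a1, Fn1 and for called members of largest change, and those of Dcn, Lum and other uncalled genes were added after their values were seen. Of other lists, up to 4 called genes of largest change in a comparison were to be named. More were named for the other fibroblast and mesenchyme markers between day 0 and day 3 and on day 7. Alternatives were quantile normalization, a filter at a mean of 6, the mean of all probe sets, other blocks, averaged repeat arrays, and left-out arrays and lines.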

Additional observations from a re-analysis of the deposited data

Results flagged for a closer look

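An array far from the other 3 of its genotype and day was found for 7 of 198 groups of 4 member values; chance alone marks about 1 in 20 groups. On day 0, Col1a1 was 8.14 and Col6a3 7.21 on J1 KO array 2, both below the other KO arrays, and Mgp (matrix Gla protein, an inhibitor of calcification) was 9.93 on E14 KO array 2, above them. On day 3, Loxl1 was 7.32 and Mfap5 6.41 on J1 KO array 1, Thy1 was 8.55 on J1 WT array 2, and Lox was 5.70 on V6.5 WT array 2.

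The change between day 3 and day 7 differed between KO and WT for 8 members by the interaction test, given as KO change minus WT change on the log2 scale. Col1a1 was at -1.63, Col1a2 at -1.24, Fn1 at -1.15, Thbs1 at -1.91, Acta2 at -4.02 and Pdgfra at -1.82. Prrx1 was at 1.78 and Thy1 at 1.02.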

How the results depend on the processing

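Of 731 counts of called members recomputed under the alternatives, 663 stayed within 1.5 times. Single genes were followed in a comparison only where first called there, with Col1a1, Col1a2, Col3a1 and Fn1 added for KO against WT. Of their 10053 values, 9414 kept their side of the threshold, 637 lost the call, 2 gained one and 0 reversed. Few gains could arise among these values. Members without a first call that gained one, such as Lum on day 7, are not among them. The cause of each change was not tested beyond the smaller sample where arrays were left out. Between KO and WT on day 0 (4 called), renewed quantile normalization gave 2, averaged repeat arrays 0 (17 at an unadjusted p under 0.05), no fold minimum 7, and leaving out E14 KO 0, J1 KO 8 and V6.5 WT 1. On day 3 (1 called), quantile normalization, the filter, averaging and leaving out E14 KO gave 0, and no line block, no fold minimum and leaving out J1 WT gave 2. On day 7 (7 called), no fold minimum and leaving out J1 WT gave 11. Between day 0 and day 3, KO gave 6 without E14 KO (13 called) and WT 4 without V6.5 WT (7 called). For the difference in change between day 3 and day 7 (8 called), leaving out E14 KO or J1 KO gave 3, J1 WT 13 and V6.5 WT 2, and for J1 KO against J1 WT on day 3 (1 called) quantile normalization gave 0. The labels do not say whether arrays of the same number were handled together. Differences between arrays 1 and 2 correlated between groups at -0.397 to 0.470 over 66 pairs, 29 above 0.1. Part of the groups thus shared deviations by array number. On day 0, 29 of 33 members were higher in array 1 in J1 KO, 26 in J1 WT and 29 in V6.5 WT, against 3 in E14 KO. With the replicate block 3 members were called on day 0, 0 on day 3 and 7 on day 7. Leaving out single arrays gave 0 to 6 calls for KO against WT on day 0, 0 to 2 on day 3 and 5 to 10 on day 7; between day 0 and day 3, 9 to 14 in KO and 6 to 7 in WT; between day 3 and day 7, 5 to 7 in KO and 16 to 18 in WT; and for the difference in change 0 to 0 and 6 to 13. It gave 0 to 1, 0 to 1 and 1 to 10 for J1 KO against J1 WT on day 0, 3 and 7, 0 to 1 on day 0 and day 7 for E14 against J1 KO, and 0 to 0 and 1 to 10 for V6.5 against J1 WT. For single lines it gave 8 to 14 in E14 KO, 2 to 9 in J1 KO, 4 to 6 in J1 WT and 2 to 7 in V6.5 WT between day 0 and day 3, and 3 to 6, 4 to 8, 11 to 18 and 15 to 19 between day 3 and day 7 in the same order. Each genotype has 2 lines. J1 KO and J1 WT share a background, but they are 1 line each, so genotype and line cannot be told apart there either.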
